A study of Mus musculus with 8 samples.

Results

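NIH3T3 cells, an established line of mouse fibroblasts, were compared right after 1 h in medium with 250 µM sodium arsenite (AS) and without treatment (NT). Arsenite is a thiol-reactive poison that damages protein folding and the redox state of the cell, arrests most translation and sets off the integrated stress response, the heat shock response and the oxidative stress response. Genes that need no new protein for their induction, the immediate early genes, are known to respond first, while many transcripts made under stress end at altered polyadenylation sites (PASs). The genes described are all those with a read number in the deposited table for AS, 10452 of the 10690 genes found in at least 1 table of the series. The series holds 8 samples, 4 libraries of QuantSeq FWD and 4 of QuantSeq REV from the same conditions, and the tables give FWD data. Their columns name only condition 1 and condition 2, which were taken as NT and AS from the table's name and the study's methods, and every direction below rests on this. All cells grew in DMEM with calf serum, and the remaining conditions, RC4 and RC8, were cells given the same arsenite treatment, washed and left to recover without arsenite for 4 h and for 8 h. Total RNA of 1 cell line was used, and QuantSeq FWD counts reads near the 3′ ends of polyadenylated transcripts.

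There was 1 library per condition, so no difference was tested, no P value is given and variation between cultures is unknown. Read numbers were scaled to RPM (reads on a gene scaled by all reads on genes), and the change of a gene is AS over NT divided by that of the median gene, which itself was 0.972 of its NT value before this step. The genes counted had 22.6 M reads in NT and 22.4 M in AS, with a median of 749 and 672 reads per gene. Intervals in brackets are 95% counting intervals (exact binomial for a fold change, Wilson for a share) and cover counting error only, since PCR copies of a molecule cannot be recognised in these reads and are counted again. In bulk RNA, fewer cells with a transcript and less RNA per cell cannot be told apart. Of 14 fibroblast markers 13 were in the table, among them Thy1 at 80.1 RPM in NT and 83.2 RPM in AS and S100a4 at 10277 and 10872 RPM. The changes of the 13 ran from −0.51 to 0.17 (log2) with a median of −0.02. Of these markers 8 were below 0 and 5 above, and none changed 2-fold. No marker of epithelium (of 6), leukocytes (of 5), endothelium (of 4) or muscle (of 4) was in the table, and of 3 adipocyte markers Fabp4 was listed at 13.9 RPM in NT and 13.2 RPM in AS.

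Each library has 2 columns of read numbers, and 127 genes had 0 in 1 column of a library while the other column held 50 to 80 reads. Over the other genes the columns of a library differed by no more than counting noise (chi-square per degree of freedom 0.975 in NT and 0.982 in AS). When the columns were added regardless, 75 genes were at least 2-fold higher and 306 at least 2-fold lower in AS. Of these, 35 and 38 had such a column at 0. In the column that had reads in both libraries, only 1 of the 35 and 1 of the 38 were still past 2-fold, and the medians were 0.26 and −0.31 (log2). Mafk, a small Maf transcription factor, had 53 and 55 reads in NT and 0 and 51 in AS. Palmd had 0 and 80 reads in NT and 103 and 116 in AS. These 127 genes were therefore left out below, which left 10325 genes.

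After 1 h of arsenite, 40 genes (0.387% of the 10325) were at least 2-fold higher and 268 (2.6%) at least 2-fold lower than in NT, 2.98% in either direction. "Rose" and "fell" are used here for these genes, and of other genes values are given. The 40 genes held 3163 RPM in NT and 7961 RPM in AS, and the 268 genes held 16997 and 6821 RPM. The interval lay wholly beyond 2-fold for 23 of the genes that rose and for 137 of those that fell. The median fold was 2.32 among the former and 2.29 among the latter, 5 genes rose at least 4-fold and 1 fell at least 4-fold. Near the threshold, Ifrd1 was 2.02-fold higher and Zfand2a 1.98-fold, which was not counted.

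**Figure D1:**
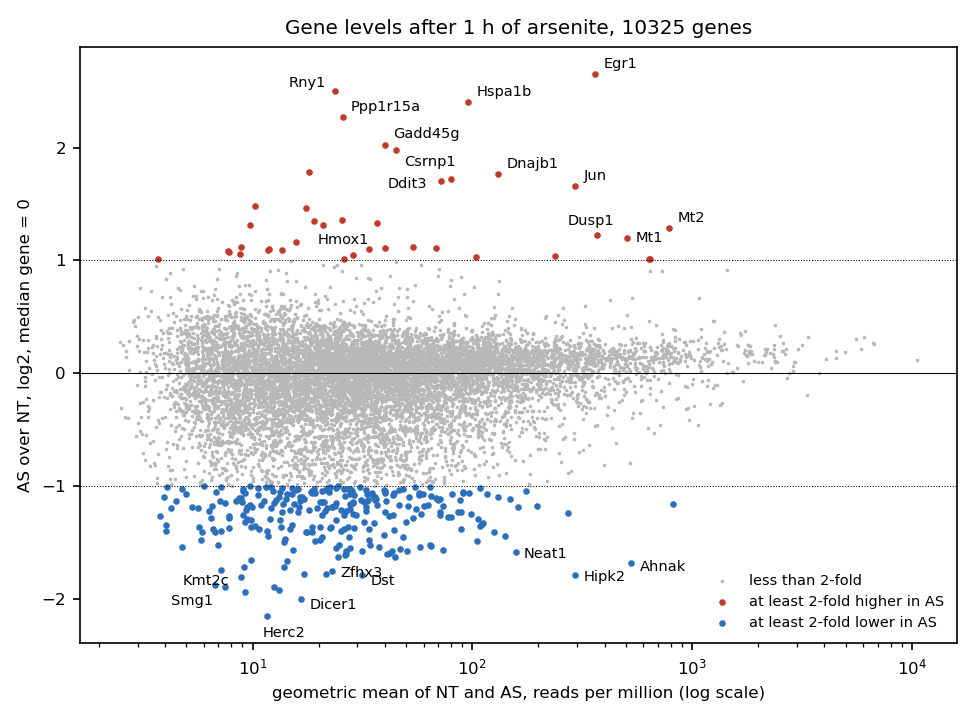
Change of 10325 genes after 1 h of arsenite (y axis, log2 of AS over NT with the median gene at 0) against their level (x axis, geometric mean of RPM in both libraries, log scale). Red and blue points are the 40 genes at least 2-fold higher and the 268 at least 2-fold lower, and dotted lines mark 2-fold. Points run through both 2-fold lines without a gap. The highest genes, up to 6.29-fold, lie apart from the rest, and the cloud extends further down than up.

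Of the 27 immediate early genes measured, 8 rose and none fell, with a median of 0.70 (log2) against 0 for all genes. Egr1, a zinc finger transcription factor induced through MAP kinases, had 146 RPM in NT and 894 RPM in AS, and with 6.29-fold (6.06 to 6.52) it was the most increased gene of the table. Jun, a subunit of the AP-1 factor, went from 168 to 515 RPM, 3.16-fold (3.04 to 3.27). Csrnp1 and Ier2, both nuclear products of early response genes, rose 3.95-fold (from 22.9 to 87.9 RPM) and 3.31-fold (from 44.8 to 144 RPM). Zfp36, which binds AU-rich elements and hastens mRNA decay, rose from 9.83 to 32.9 RPM, 3.44-fold (2.96 to 4.02). Btg2, an antiproliferative partner of the deadenylase, and the Krüppel-like factors Klf2 and Klf6 rose 2.52-, 2.49- and 2.05-fold. These 8 genes encode transcription factors, regulators of mRNA decay and other nuclear proteins. Other members with many reads stood under 2-fold, Ier3 at 722 and 847 RPM (1.21-fold) and Ier5 at 401 and 437 RPM (1.12-fold).

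Of the genes controlled by ATF4, the transcription factor of the integrated stress response, 3 of 20 rose and none fell, with a median of 0.22. These were Ppp1r15a, which encodes the GADD34 subunit that returns eIF2α to its active form, Ddit3, which encodes CHOP, and Chac1, which degrades glutathione. Ppp1r15a had 11.9 RPM in NT and 55.8 RPM in AS, 4.83-fold (4.23 to 5.53). Ddit3 had 40.7 and 129 RPM and rose 3.25-fold, and Chac1 went from 10.7 to 28.7 RPM, 2.75-fold. Atf4 itself stood at 429 and 660 RPM, 1.58-fold, and Psat1, which makes serine, at 341 and 359 RPM, 1.08-fold. The amino acid synthesis genes Asns (0.24, log2), Phgdh (0.21) and Psat1 (0.11) were under 2-fold.

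Of 23 heat shock chaperones 2 rose and none fell. Hspa1b, the inducible HSP70, went from 42.3 to 218 RPM, 5.3-fold (4.94 to 5.69), although reads of its near-identical copy Hspa1a may be divided between both genes and Hspa1a was not analysed here. Dnajb1, the HSP40 that delivers substrates to HSP70, went from 72.3 to 239 RPM, 3.39-fold. The constitutive chaperones with the most reads stood at 3818 and 3712 RPM (Hsp90ab1) and at 1080 and 1450 RPM (Hspa8, 1.38-fold). The lowest member was Hspd1, the mitochondrial HSP60, at 1132 and 827 RPM (−0.41, log2). The median of the list was 0.13.

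Of 24 genes controlled by NRF2, the regulator of the antioxidant response, Hmox1 rose. This gene, which encodes heme oxygenase, had 27.6 RPM in NT and 57.8 RPM in AS, 2.15-fold (1.96 to 2.37). Slc7a11, the cystine importer, stood at 6.33 and 5.84 RPM, and Srxn1, sulfiredoxin, at 148 and 141 RPM. The members with the most reads, Fth1 (ferritin heavy chain) and Prdx1 (a peroxiredoxin), were 1.16- and 1.13-fold. Both metallothioneins, the cysteine-rich proteins that bind metals, rose, Mt1 from 339 to 757 RPM, 2.3-fold, and Mt2 from 510 to 1212 RPM, 2.44-fold (2.39 to 2.5).

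Dusp1, the phosphatase that switches off stress-activated MAP kinases, was the 1 of 9 genes of its family that rose, from 244 to 554 RPM (2.33-fold), and Dusp6, which acts on ERK, stood at 210 and 193 RPM. Among 15 targets of p53 and growth arrest genes, Gadd45g rose 4.08-fold (from 20 to 79.4 RPM) and Gadd45a 2.13-fold (from 9.44 to 19.5 RPM), whereas Cdkn1a was at 0.27 (log2) and Mdm2 at −0.10 (log2). The list's median was −0.01. Of 20 histone genes, Hist1h1c and Hist1h2bc, which can end in a poly(A) tail, rose 2.18- and 2.1-fold. Several small RNAs were read in the libraries too, and Rny1, the Y RNA, went from 10.1 to 55.4 RPM (5.67-fold) and the snoRNA Snora61 from 12 to 29.9 RPM (2.55-fold). Near-identical copies of such genes exist, so that their reads are uncertain. The rest of the most increased genes were Epha10, an Eph receptor (2.79-fold, from 6.2 to 16.9 RPM), and Slc16a4, a transporter of the monocarboxylate family (2.57-fold, from 16.1 to 40.2 RPM).

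**Figure D2:**
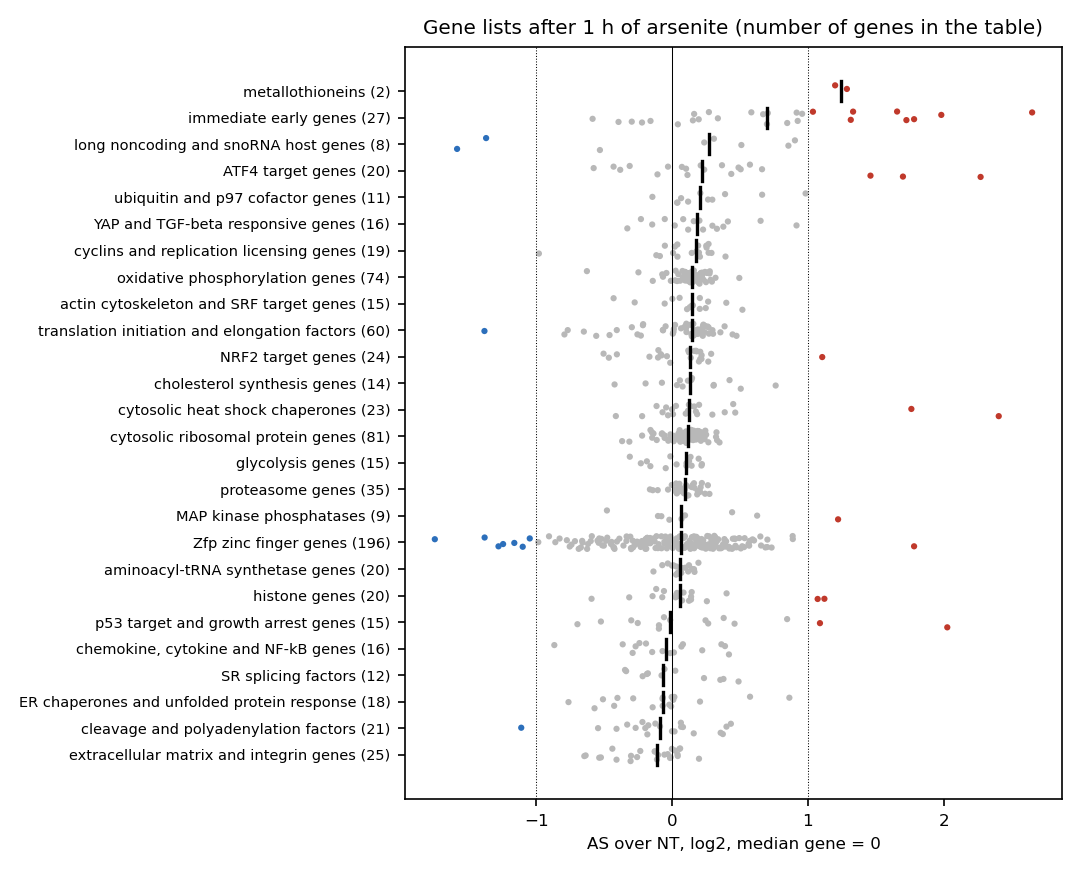
Change of every gene of 26 lists after 1 h of arsenite (x axis, log2 of AS over NT, median gene at 0), with the number of genes in brackets. Black bars are medians, red and blue points are genes past 2-fold (dotted lines). In the list of immediate early genes 8 of 27 lie beyond 2-fold, and in the lists of stress pathways 1 to 3 genes stand apart from a group near 0.

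In 14 of the 26 lists no gene was past 2-fold. Ribosomal protein genes (81, median 0.12), genes of oxidative phosphorylation (74, median 0.15), the proteasome (35, median 0.10) and aminoacyl-tRNA synthetases (20, median 0.06) all had medians just above the median gene, and their members ran from −0.63 to 0.50 (log2). Genes of the extracellular matrix and integrins (25) had a median of −0.11 and those of the ER and the unfolded protein response (18) −0.07, among them Edem1 at −0.76 and Dnajb9 at 0.86. Chemokine, cytokine and NF-κB genes (16) had a median of −0.04, with Cxcl5 at 3603 RPM in NT and 3068 RPM in AS and Lif, a cytokine, at 33.1 and 17.7 RPM (−0.87, log2). Id3, an inhibitor of basic helix-loop-helix factors, was the highest of the 16 YAP and TGF-β genes at 1.89-fold. Zfand2a, an arsenite-inducible partner of the proteasome, was the highest of the 11 ubiquitin and p97 genes at 1.98-fold.

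Most genes that fell had long transcripts. Herc2, a giant ubiquitin ligase, had 24.9 RPM in NT and 5.44 RPM in AS, 4.45-fold lower (3.65 to 5.46), the most decreased gene of the table. Dicer1, which cuts microRNA precursors, fell from 33.7 to 8.2 RPM, just under 4-fold (3.4 to 4.72). Kmt2c and Kmt2d, the histone H3 lysine methyltransferases of enhancers, fell 3.83-fold (18.4 to 4.68 RPM) and 3.79-fold (26 to 6.69 RPM). Smg1, the kinase of nonsense-mediated decay, fell 3.71-fold from 14.6 to 3.83 RPM and Bod1l, which protects replication forks, 3.67-fold from 13.1 to 3.48 RPM. Dst and Map1a, which link or stabilise the cytoskeleton, fell 3.45- and 3.44-fold. Hipk2, a nuclear kinase, fell 3.45-fold (3.33 to 3.59), from 553 to 156 RPM, and Ahnak, a giant scaffold protein, 3.2-fold, from 958 to 291 RPM. Arhgef12, a guanine nucleotide exchange factor, fell 3.29-fold and Zfhx3, a homeodomain factor, 3.36-fold. The annotated transcripts of these genes are 7684 nt (Hipk2) to 23240 nt (Dst) long. Ahnak was singled out after its values were seen.

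Some genes that fell are annotated with shorter transcripts or are noncoding. Whether these annotations are complete was not tested. The table lists ENSMUSG00000051554 (1529 nt, 3.42-fold lower, with a PAS shared with another gene), Zfp469 (3078 nt in the annotation used, 3.35-fold lower) and Mir21a, under which reads of the primary transcript of a microRNA are counted (16.8 and 4.68 RPM, 3.49-fold lower). Dnm3os, a long noncoding RNA of 7928 nt, fell 3.72-fold but shares a PAS with Mir214. In the list of long noncoding RNAs, the nuclear Neat1, which builds paraspeckles, fell 2.99-fold from 276 to 89.6 RPM, and Meg3, an imprinted RNA, 2.58-fold from 36.8 to 13.9 RPM. Malat1 was at 819 and 551 RPM, while Snhg1, which hosts snoRNAs, was at 542 and 986 RPM. Other genes past 2-fold on the lists were Eif4g3, a scaffold of translation initiation (2.6-fold lower, 1 of 60 factors), Cpsf2, a subunit of the cleavage and polyadenylation complex (2.16-fold lower, 1 of 21) and 7 of 196 zinc finger genes with Zfp symbols, against Zfp36 that rose. Of all 10325 genes 2.6% fell and 0.387% rose, so these small counts are not read as a trait of the lists.

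**Figure D3:**
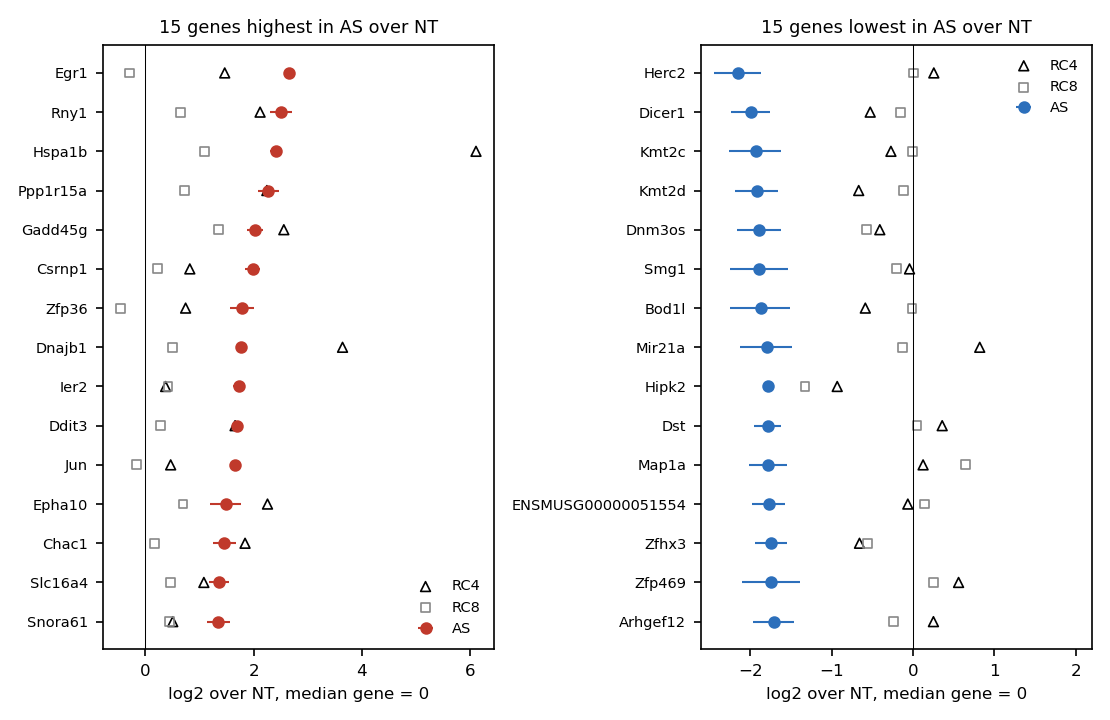
Change of the 15 genes highest (left) and the 15 genes lowest (right) in AS over NT with at least 200 reads in the higher library. The x axis is log2 over NT with the median gene at 0, filled circles are AS with 95% counting intervals, triangles RC4 and squares RC8. All share the NT library. Hspa1b and Dnajb1 lie further right in RC4 than in AS, and the genes lowest in AS lie nearer to 0 in RC4 and RC8. The genes were chosen by their AS values, so this last point is a description.

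Over the 9396 coding genes with an annotated length, the change in AS ran with transcript length. The median was 0.12 for the 699 genes with transcripts under 1 kb and −0.05 at 3 to 4 kb, and it went down to −0.21 at 4 to 6 kb, −0.46 at 6 to 8 kb, −0.64 at 8 to 10 kb and −0.79 (−0.90 to −0.75, an order-statistic interval over genes) for the 160 genes of at least 10 kb. Spearman's rank correlation was −0.50 over genes, which all share 2 libraries and are not independent replicates, and it is given as a description. Of the 160 longest, 57 (35.6%) fell and none rose, and of the 699 shortest, 1 fell and 5 rose. Genes that rose had a median transcript of 2070.5 nt with 3.5 exons, those that fell 7345 nt with 20 exons and all genes 2899 nt with 9 exons. Gene span moved in parallel, with medians of 3864.5, 94806 and 24668 nt.

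The trend was present at all read depths and in both parts of the transcript. Among the genes with the fewest NT reads (52 to 330), genes of at least 6 kb had a median of −0.45 and genes under 2 kb 0.11, and among those with the most (1746 or more) the values were −0.48 and 0.13. Genes with a coding sequence under 3 kb and a 3′UTR under 2 kb had a median of 0.06 (6276 genes, 0.414% fell). The median was −0.16 with only the 3′UTR longer (1804 genes, 2.55% fell), −0.31 with only the coding sequence longer (939 genes, 9.58% fell) and −0.68 with both longer (377 genes, 22.5% fell). Length, exon number and gene span go together in the genome, and their parts cannot be told apart here.

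**Figure D4:**
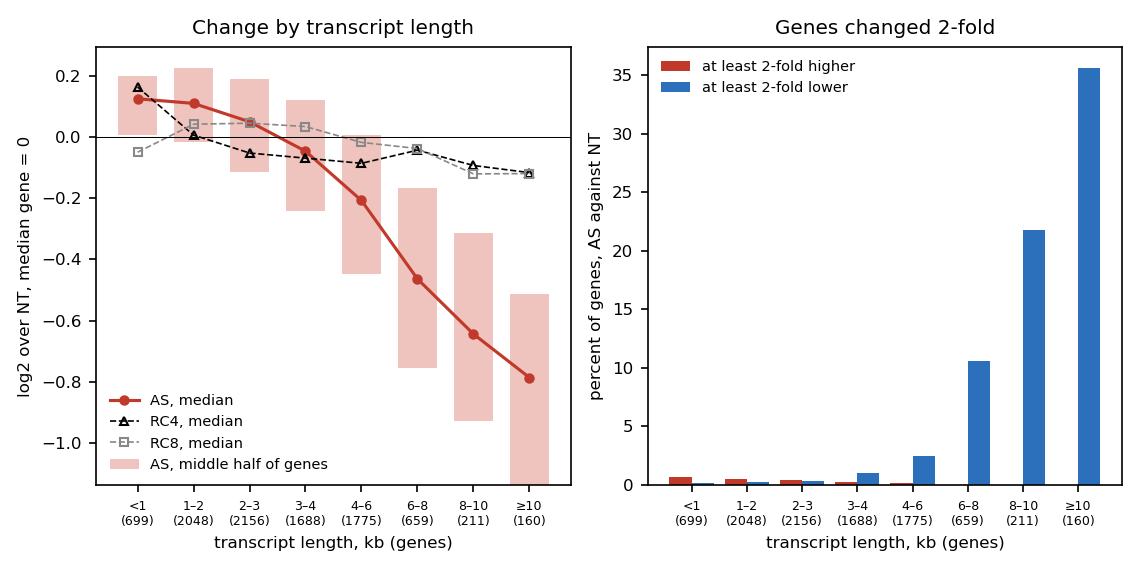
Left, change over NT (y axis, log2, median gene at 0) by length of the annotated coding transcript (x axis, kb, number of genes in brackets), with the median and the middle 50% of genes in AS and the medians in RC4 and RC8. Right, percent of genes at least 2-fold higher or lower in AS in the same classes. The AS median goes from 0.12 to −0.79 with length, the other medians stay between −0.12 and 0.16, and the share that fell goes from 0.143% to 35.6%.

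In RC4 and RC8, which are compared with the same NT library, the medians of the longest class were −0.12 and −0.12. With the RC4 or RC8 library in place of NT, the AS value of this class was −0.74 and −0.69, and over all coding genes Spearman's rank correlation with length was −0.31 with RC8 in place of NT. The genes that rose or fell were chosen by their AS values, so values nearer to 0 in RC4 and RC8 are a description. The 268 genes that fell had medians of −1.20 in AS, −0.08 in RC4 (264 genes in its table) and −0.14 in RC8 (267 genes). Hipk2 was an exception, with −1.79 in AS, −0.93 in RC4 and −1.33 in RC8. Neat1 was at −1.58 in AS and 1.48 in RC4. The 40 genes that rose had medians of 1.21 in AS, 1.05 in RC4 (38 genes) and 0.29 in RC8 (39 genes), but single genes went separate ways. Egr1 was at 2.65, 1.47 and −0.30 (log2) in AS, RC4 and RC8, Jun at 1.66, 0.47 and −0.16, and Dusp1 at 1.22, −0.05 and −1.05. Hspa1b was at 2.41, 6.11 and 1.09, Dnajb1 at 1.76, 3.64 and 0.51, Hmox1 at 1.11, 5.31 and 1.87 and Mt2 at 1.29, 3.76 and 1.90. Egr1, Jun and Dusp1 were thus highest in AS, and Hspa1b, Dnajb1, Hmox1 and Mt2 in RC4. Slc7a11 (−0.08 in AS, 5.27 in RC4) and Srxn1 (−0.04 and 3.57) were near their NT level at 1 h.

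Promoters of the genes that rose were searched for known response elements, as far as RefSeq (GRCm38.p6) gave them, in windows from 250 bases before to 50 after the transcription start. Of 40 genes 26 matched by symbol, with 31 promoters. The cyclic AMP response element TGACGTCA, which reads the same on both strands and is bound by CREB and ATF factors, was in 4 of the 31 (12.9%, 5.13 to 28.9%), in 3.3% of the 9653 promoters of all genes counted and in 2.35% of the 255 promoters of genes that fell. CCAAT, searched on both strands, was in 48.4% (32 to 65.2%) of the 31, 38.1% of all and 31.8% of those of genes that fell. The metal response element, TGCACNC or TGCGCNC on either strand, was in 41.9% (26.4 to 59.2%), 36.3% and 42.4%. The AP-1 site TGANTCA was in 9.68% (3.35 to 24.9%), 4.67% and 2.75%, on both strands. The antioxidant response element TGACNNNGC was in 22.6% (11.4 to 39.8%), 14.4% and 11.4%, also on both strands. For CCAAT and for the metal, AP-1 and antioxidant elements, the interval of the 31 holds the share of all genes counted. Several promoters of 1 gene are not independent, so these intervals are too narrow. The cyclic AMP response element, with 4 promoters, is 1 of several elements searched, and its share is a description. The heat shock element (a canonical inverted repeat) and TGATGNAAT, bound by ATF4 with C/EBP factors, were in none of the 31, which says only that these letters are not in these windows. A match is a description of the letters and not a site of binding. The 4 promoters with the cyclic AMP response element and elements of Mt1, Mt2 and Zfp36 are shown because these genes rose, in 30 bases 5′ to 3′ on the strand of the gene with the element in capitals. That of Zfp36 is a CArG box, the site of serum response factor. It was in 1 of the 31 (3.23%, 0.572 to 16.2%), 1.34% of all promoters of genes counted and 2.35% of those of genes that fell. TATAAA, searched on the strand of the gene, was in 9.68% (3.35 to 24.9%), 4.1% and 2.75%. For both, the interval of the 31 holds the share of all genes counted. Coordinates are GRCm38.p6.
Ppp1r15a, chr7:45526262-45526291, minus strand: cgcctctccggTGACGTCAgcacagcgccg
Dusp1, chr17:26508597-26508626, minus strand: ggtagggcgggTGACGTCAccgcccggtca
Btg2, chr1:134079303-134079332, minus strand: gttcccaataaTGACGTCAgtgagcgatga
Ccnl1, chr3:65958249-65958278, minus strand: tgtcggcgtggTGACGTCAgggcggaagcg
Mt1, chr8:94179055-94179084, plus strand: cggtcccgctgTGCACACtggcgctccagg
Mt2, chr8:94172384-94172413, plus strand: agcatcgcctcTGCACCCggcccctcgggc
Zfp36, chr7:28379267-28379296, minus strand: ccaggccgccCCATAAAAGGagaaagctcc

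Of the 40 genes that rose, 24 (60%) had 1 PAS in the table, against 36.2% of the 268 that fell and 48.9% of all 10325. With 40 genes this share is imprecise. Their 3′UTRs were also shorter, with a median of 666.5 nt (32 genes with coding lengths) against 923 nt for all, and the part of length was not tested. Genes with several PASs in the 3′-most exon, or of the single-exon type where that exon had none, were compared here and by distance below. The share taken was that of the most distal PAS among reads at these PASs only, with order-statistic intervals over genes. Its median change was −2.8 points (−5.3 to 4.2) in the 13 genes that rose and −3.87 points (−5.18 to −2.29) in the 152 that fell. In all 4419 it was −1.7 points (−1.86 to −1.52). The share was lower in AS in 8 of the 13, 111 of the 152 and 66% of all. PASs upstream of the 3′-most exon, in introns and other exons, gained a median of 1 point (0.7 to 1.28) in all 1281 genes that had both kinds. In the 34 of these genes that fell, the median was 1.275 points (−1.3 to 3.03). Of the 34, 22 gained (64.7%), near the 768 (60%) of all 1281. Over all reads of the genes counted, intronic PASs held 5.93% in NT and 5.91% in AS. PASs in internal exons held 1.74 and 1.84%, and those in 5′-most exons 0.436 and 0.484%.

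The shift to proximal PASs also ran with distance. Where the outermost PASs within the 3′-most exon lay under 0.3 kb apart, the median of distal over proximal in AS over NT was −0.04 (log2, 1365 genes), and it was −0.14 at 0.3 to 1 kb, −0.22 at 1 to 2 kb, −0.42 at 2 to 4 kb and −0.62 (−0.71 to −0.50) at 4 kb or more (327 genes). In the last class, reads of the proximal PAS changed by −0.03 and those of the distal PAS by −0.69. In the 29 genes of this class that fell, the proximal PAS was at −0.81 and the distal PAS at −1.61. The ratio was below 0 in 28 of them (96.6%), against 282 (86.2%) of all 327. Its median in the 29 was −0.85 (−1.23 to −0.33), an interval that holds the −0.62 of all. These genes were chosen for lower reads summed over their PASs, so that the lower levels of the single PASs are a description. FWD reads begin some way before a PAS, and the authors' model divided them between PASs. Values of close PASs are thus less certain than their intervals show, and the part of this under 0.3 kb was not tested.

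**Figure D5:**
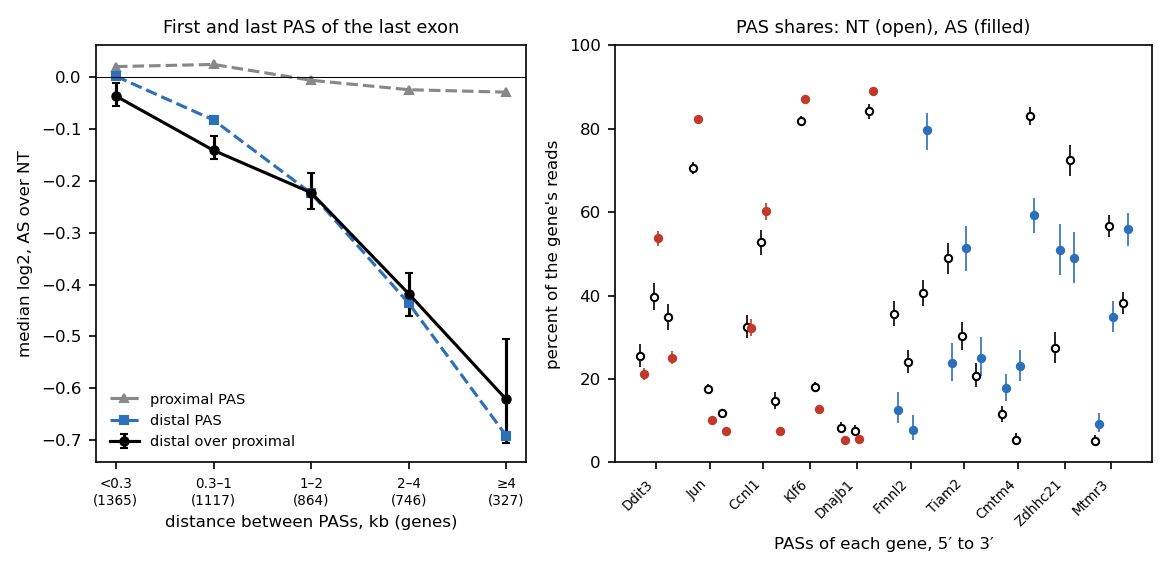
Left, median log2 of AS over NT for the ratio of the outermost PASs, last over first, within the 3′-most exon (black, 95% order-statistic intervals) and for each PAS (dashed), by the distance between them (x axis, kb, number of genes in brackets). Right, share of a gene's reads at each PAS (y axis, percent) in NT (open) and AS (filled) for 5 genes that rose (red) and 5 that fell (blue), with 95% Wilson intervals. The distal PAS goes down with distance while the proximal PAS stays near 0.

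The 3′ ends of the genes with the largest changes show both kinds of event, and the last 30 bases before a PAS are printed for examples of each, chosen after their values were seen (mm9 coordinates, 5′ to 3′ on the strand of the gene, with the last AATAAA in capitals where there is one).
Zdhhc21 proximal, chr4:82449937-82449966, minus strand: ttattgttggtgatgttccttcttggtaaa
Zdhhc21 distal, chr4:82444644-82444673, minus strand: ttatttttaAATAAAtatttttgaaaaaca
Cmtm4 second PAS, chr8:106878675-106878704, minus strand: aaaccttAATAAAtggcattgagaagggaa
Cmtm4 distal, chr8:106872100-106872129, minus strand: tttAATAAAtggacatattaaaaaaacaaa
Jun proximal, chr4:94716225-94716254, minus strand: taagaaaatacAATAAActattgaaaagta
Klf6 proximal, chr13:5866992-5867021, plus strand: aagggtgtctgcaccttagaaaaaAATAAA
Klf6 distal, chr13:5869585-5869614, plus strand: atttctgtatgaatgtattttttattcgaa
Fmnl2 intronic, chr2:52729381-52729410, plus strand: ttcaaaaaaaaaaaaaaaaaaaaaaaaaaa
Fmnl2 in the 3′-most exon, chr2:52992809-52992838, plus strand: atttgagcaAATAAActatttacactacta

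Zdhhc21, a palmitoyltransferase, had 72.6% (68.8 to 76.1%) of its reads at the distal PAS in NT and 49% (42.9 to 55.1%) in AS, with 5293 nt between its PASs, and fell 2.14-fold as a gene. Cmtm4, a membrane protein of the MARVEL family, went from 83.1% (80.8 to 85.2%) to 59.3% (54.9 to 63.5%) at its distal PAS, 6707 nt from the first, and fell 2.18-fold, but it shares a PAS with another gene. In both genes the reads of the distal PAS were lower by 1.67 and 1.61 (log2), while the proximal PAS of Zdhhc21 was at −0.20 and the second PAS of Cmtm4 at 0.96. Mtmr3, a lipid phosphatase, moved within a short stretch, from 56.7 to 34.9% at its second PAS and from 38.2 to 55.9% at the third, which lies further 3′. These PASs of Mtmr3 lie close together, and the second PAS of Cmtm4 lies 132 nt from its first. The division of reads between them rests on the authors' model.

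Fmnl2, a formin that nucleates actin, and Tiam2, a Rac exchange factor, moved the other way, since they lost reads at PASs in introns. The intronic PASs of Fmnl2 had 35.6 and 24% of its reads in NT and 12.6 and 7.74% in AS, and the PAS in the 3′-most exon went from 40.5% (37.4 to 43.7%) to 79.7% (74.9 to 83.8%). The intronic sequence shown above is nearly all A in the genome, and reads of the 3′-most exon alone changed by −0.57 (log2) where the gene changed by −1.55. Tiam2 had 48.9% of its reads at an intronic PAS in NT and 23.7% in AS. The genome before this PAS also ends in a run of A. Without their intronic PASs, neither gene was past 2-fold at any remaining PAS, and the part of A-rich genomic sequence in these reads was not tested.

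Among the genes that rose, Jun went from 70.7% (69.2 to 72.1%) to 82.3% (81.6 to 83.0%) at its most proximal PAS and Klf6 from 81.9% (80.6 to 83.1%) to 87.2% (86.4 to 87.9%). The distal PAS of Klf6, 2593 nt downstream, still gained reads (0.54, log2), but fewer than the proximal one (1.13). Ddit3 gained at its middle PAS, from 39.7 to 53.7%, Ccnl1, a cyclin of splicing factors, at its middle PAS from 52.8 to 60.3%, and Dnajb1 at its most distal PAS, from 84.3 to 89.1%. The direction thus differed between genes that rose. The 3 PASs of Ddit3 lie within 294 nt, and the division of reads between close PASs rests on the authors' model, whose error the intervals leave out. Not every long transcript with distant PASs shifted, and Hipk2, chosen after its values were seen, had 94.9% of its reads at the distal PAS in NT and 94.7% in AS, with 10104 nt between its PASs.

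The last 500 bases before the main PAS were searched for AU-rich elements, since these mark unstable mRNAs of early response genes. ATTTATTTA, on the transcribed strand, was in 1 of 40 genes that rose (2.5%, 0.443 to 12.9%), in 1.87% of those that fell and in 1.92% of all. ATTTA, which lies within the longer motif, was in 57.5%, 67.9% and 51.9%, and the median A+T content was 54.4%, 62.1% and 56%.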

How the data were processed

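RNA of NIH3T3 cells was sequenced with QuantSeq FWD, 1 library each for NT, AS, RC4 and RC8. Per the submitters' processing notes reads were aligned with STAR 2.5.2a to mm9, and per the methods the authors trimmed reads with BBMap and assigned them to PASs of PolyA_DB with MAAPER, keeping genes with at least 50 reads and PASs with at least 5% of a gene's reads. The deposited tables hold read counts per gene in 2 columns per library and PAS usage as fractions of a gene's reads, estimated by the authors. The headers carry no sample titles, so condition 1 was taken as NT and condition 2 as the treated cells from the table names and the methods. Deposited columns of the authors' own comparisons (P values, shortening scores and Fisher tests) were not used. No per-sample column was left unused (0).

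Here both columns were added, counts were divided by their total and AS over NT was centred on the median gene. Genes at least 2-fold changed were counted. With 1 library per condition, no test was made, and the read number sets only the counting error. Leaving out genes with a column at 0 was a departure from the plan, decided after seeing the data. Named genes were the 15 highest and 15 lowest with at least 200 reads, members of gene lists past 2-fold and the 2 with most reads, and the 5 higher and 5 lower genes with the largest PAS change. Asns, Phgdh, Hspd1, Ier5, Slc7a11, Srxn1, Cdkn1a, Mdm2, Edem1, Dnajb9, Lif, Id3, Zfand2a, Ifrd1, Malat1, Thy1, Mafk, Palmd, Ahnak and Hipk2's PASs were chosen after their values were seen. Members and lists were chosen with earlier results of these data known. Transcript lengths are of the annotated transcript with the longest coding sequence, and in a tie of the longer transcript (GENCODE on mm9). Alternatives were other scalings (uncentred, edgeR's TMM), single columns, read minimums, fold thresholds and, chosen after seeing the data, the genes with a column at 0, other lengths and other control libraries. Scripts were tested on simulated data. Python 3.11.15, numpy 2.4.6, pandas 2.3.3, scipy 1.17.1, matplotlib 3.10.9, R 4.3.3 and edgeR 4.0.16 were used. The REV libraries were not analysed here.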

Additional observations from a re-analysis of the deposited data

How the results depend on the processing

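No paired analysis was possible because each condition had 1 library, and for the same reason no replicate could be left out. Of the values recomputed, 4 changed sign. The median of the long noncoding and snoRNA host genes went from 0.27 (8 genes) to −0.53 (3 genes) without genes sharing a PAS, that of p53 targets from −0.01 to 0.0231 with the first column alone, and that of Zfp genes from 0.06 to −0.000833 with at least 200 reads. The share upstream of the 3′-most exon in genes that rose went from −0.455 points (2 genes) to 1.8 points (15 genes) at 1.5-fold. A further 12 values moved beyond their error (beyond 1.5 times for a count of genes), while 240 summary values and 238 values of single genes did not. All alternatives except RC4 or RC8 in place of NT reuse the same libraries, and several only shift all genes nearly alike. That values stayed was therefore largely fixed in advance and says nothing about variation between cultures. The count of genes at least 2-fold higher was 75 when genes with a column at 0 were kept, an alternative chosen after seeing the data. With intervals wholly beyond 2-fold the counts were 23 higher and 137 lower, and at 1.5-fold 168 and 1007. Without centring on the median gene, the list medians were 0.0207 for aminoacyl-tRNA synthetases, 0.0778 for ribosomal proteins and 0.11 for oxidative phosphorylation, and with the second column alone it was 0.15 for glycolysis. The median of transcripts of at least 10 kb was −0.74 with RC4 and −0.69 with RC8 in place of NT and −0.92 by the shortest transcript (37 genes), all chosen after seeing the data. Leaving out the centring moves every gene by −0.04 (log2), and the uncentred list medians follow from that. Counts at other thresholds follow from the thresholds, and the 75 genes include some with a column at 0. The cause of the other shifts was not tested. No gene counted had under 50 reads in NT or AS. Fos, Atf3 and Hspa1a, which the table does not list, were not analysed here.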
